A study of Mus musculus with 12 samples.

Results

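ATF4 and 9 genes of the amino acid response that it drives were followed in mouse eosinophils with and without Atg5, an autophagy gene. The set was a list of symbols (Atf4, Atf5, Ddit3, Trib3, Chac1, Asns, Sesn2, Psat1, Phgdh and Slc3a2) looked up by Ensembl identifier, and all 10 were found among the 53801 genes of the count table. The list names the pathway and sets no threshold on a measured value, but it was drawn up with results of these data known.

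Eosinophils were isolated from bone marrow and blood, and poly(A) RNA was sequenced in 12 libraries, 3 in each of 4 groups. The Atg5-knockout groups came from mice with Atg5 flox/flox, 1 copy of a Cre knock-in at the eosinophil peroxidase gene Epx (eoCre) and an Il5 transgene (Il5tg). The control groups carried eoCre and Il5tg without the floxed alleles. Every group, controls included, therefore overproduced interleukin 5 and had 1 Epx allele replaced by Cre, and no group shows eosinophils of an unmodified mouse. The Cre acts only once Epx is switched on, in cells already committed to the eosinophil lineage. Marrow cells were flushed from leg bones, blood cells were taken through a density gradient and water lysis of red cells, and both were then depleted of other leukocytes with antibodies, so tissue and isolation method cannot be told apart. The age of the RNA-seq animals is not given in the sources used here, and the sources do not state that each library is a separate animal, so p-values measure the spread between these libraries.

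ATF4 is a transcription factor whose messenger RNA is translated better when eIF2alpha is phosphorylated, which happens through the kinase GCN2 when amino acids run short and through PERK, PKR or HRI under other stresses. It then switches on genes for making, importing and charging amino acids, together with genes that feed back on the response. Since ATF4 is controlled largely at translation, the level of Atf4 RNA is not a measure of ATF4 protein, and the RNA of its targets is the usual readout. Autophagy returns amino acids to the cell by breaking down its own proteins, which gives the comparison of Atg5-knockout with control its interest for these genes.

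The libraries held between 18885052 and 30270166 counted reads. All 10 eosinophil marker genes had reads in every library and took 8.04 to 10.2% of the reads in bone marrow and 1.80 to 4.05% in blood. Atg5 itself lay between 30.6 and 33.9 CPM, counts per 1000000 reads in bone marrow libraries labelled Atg5-knockout and between 40.5 and 45.4 CPM in bone marrow controls. In blood the ranges overlapped, at 36.7 to 52.5 CPM and 40.1 to 58.8 CPM. The deletion removes a single exon, so a count over the whole gene does not check the genotype label. The 12 red cell marker genes took 14.6% of the reads in blood control replicate 1 and at most 1.42% in any other library. Neutrophil markers took 2.29 to 3.27% in bone marrow and 1.19 to 2.13% in blood. B, plasma and T cell, dividing-cell and neutrophil markers were higher, and eosinophil markers lower, in replicate 1 of both blood groups than in the other 4 blood libraries. Among the members, Phgdh, Chac1 and Psat1 were higher and Slc3a2 lower in those 2 libraries than in the other 4, and these genes are also given without them. Genes that mark dividing cells took 0.212 to 0.293% of the reads in bone marrow and 0.0152 to 0.0226% in blood. In such bulk samples, fewer cells of a type and less RNA per cell cannot be told apart. The study assessed the purity of its sequenced eosinophils by flow cytometry and stained cells, and a share of reads is not a share of cells.

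ATF4 and its partners bind an 8-letter core, TGATGNAA, in the control regions of many targets. This core was searched on both strands of RefSeq promoter windows (build GRCm38.p6) that run from 250 bases before to 50 bases after a transcription start. Of 32851 windows, 3.97% held a match, and of the 27025 genes with a window, 4.51% had at least 1 window with a match. All 10 genes had a window, and 3 of them held a match, namely Chac1, Trib3 and Asns, which are shown. Asns was called lower in blood than in bone marrow in both genotypes, and Trib3 in Atg5-knockout cells. The fall of Chac1 is a description, since its reads in blood were too few for a test there. Psat1, Phgdh and Atf5, which also fell in both genotypes, had no match. Each line gives 30 bases of the strand of the gene, with the match in capitals.

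Chac1: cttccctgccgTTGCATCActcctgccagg

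Trib3: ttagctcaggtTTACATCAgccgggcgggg

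Asns: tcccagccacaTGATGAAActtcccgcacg

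The Chac1 stretch is chr2:119351038-119351067 on the plus strand, and its match begins 193 bases before the RefSeq start and reads on the opposite strand. The Trib3 stretch is chr2:152344028-152344057 on the minus strand, with the match beginning at base 15 after the RefSeq start, also on the opposite strand. The Ensembl model of Trib3, which was the one counted, begins at base 152344032, so the match lies upstream of it. The Asns stretch is chr6:7693214-7693243 on the minus strand, and its match begins 23 bases before the RefSeq start and reads on the strand of the gene. The Ensembl model of Asns begins further upstream, at base 7693254, and so includes this stretch. When the middle letter was fixed as C (TGATGCAA), 0.895% of windows and 1.03% of genes matched, and of the 10 genes Chac1 alone did. A match is a run of letters and not a measured binding site, and a window without one says only that these letters were not in it.

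The members differed widely in level. Divided by exon length, Atf4 was the most abundant of the 10 in each group, at 127 ± 10.2 CPM per kilobase in bone marrow controls (SD, n = 3) and 95.5 ± 20.9 in blood controls (SD, n = 3). Slc3a2 came next in each group, and its values did not overlap with those of its neighbours in the order. In bone marrow controls Phgdh and Psat1 followed with 27.3 ± 2.17 and 23.3 ± 3.02 CPM per kilobase (SD, n = 3 each), whose values overlapped. Sesn2, Atf5, Ddit3 and Asns came after them, each overlapping with the next, and then Trib3 and Chac1, which stood apart from their neighbours. In blood controls the order changed, with Sesn2 at 11.1 ± 1.66 and Ddit3 at 7.68 ± 2.32 CPM per kilobase (SD, n = 3 each) in the places behind Slc3a2. Psat1 and Phgdh lay at 2.59 ± 0.510 and 2.44 ± 2.03 CPM per kilobase there (SD, n = 3 each), overlapping with each other, with Atf5 above and with Trib3 below.

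**Figure D1:**
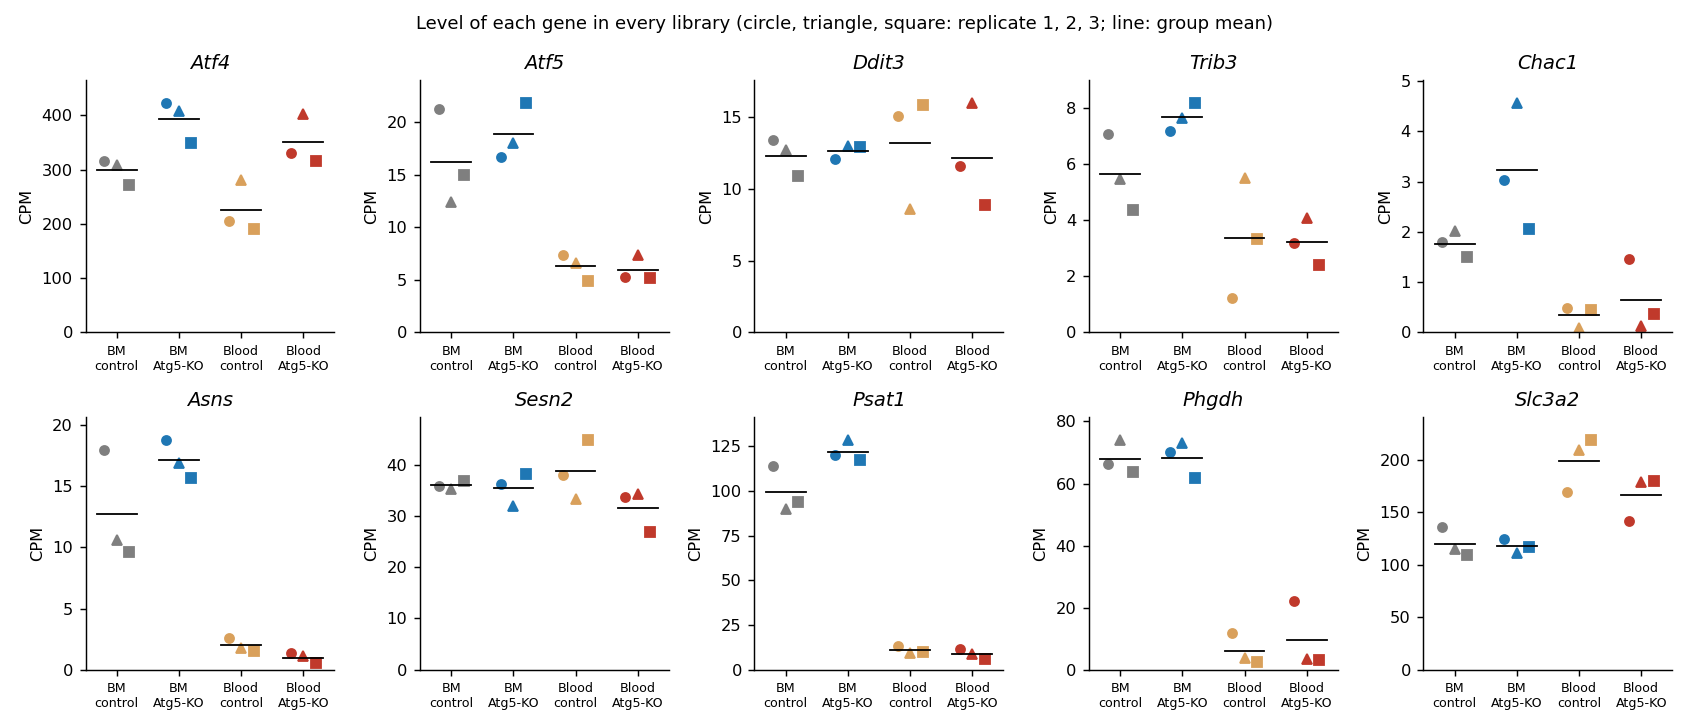
CPM (vertical axis, from 0, a scale for each gene) in every library of the 4 groups, with circle, triangle and square for replicates 1, 2 and 3 and a line at the group mean. Psat1, Phgdh and Asns lay far lower in blood than in bone marrow, Slc3a2 higher, and Atf4 was higher in every Atg5-knockout library than in any control library of the same tissue.

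The first comparison asked whether eosinophils lacking Atg5 differ in these genes within a tissue. Atf4 was higher in every Atg5-knockout library than in any control of the same tissue, with Trib3, Chac1 and Psat1 also above every control in bone marrow and Asns below every control in blood, but none of these differences passed the test over all genes. Of the 10 members tested in bone marrow and the 9 tested in blood, 0 had an adjusted p under 0.05 in edgeR's quasi-likelihood test. DESeq2 and limma-voom also called 0 in each tissue. Over all genes, 0.348% were called in bone marrow and 0.0371% in blood. At an unadjusted p under 0.05, 3 members were higher and 0 lower in Atg5-knockout bone marrow, beside 4.36% of all genes that were higher. In blood the counts were 1 higher and 0 lower, beside 1.1% of all genes.

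Atf4 encodes the central transcription factor. In bone marrow the controls had 316, 309 and 271 CPM and the Atg5-knockout libraries 423, 407 and 349 CPM. In blood the controls had 205, 282 and 190 CPM and the Atg5-knockout libraries 331, 403 and 315 CPM. The Atg5-knockout libraries lay above the controls without overlap in both tissues. The log2 fold change was 0.37 in bone marrow (SE 0.11, 95% interval 0.12 to 0.61; edgeR adjusted p = 0.276) and 0.65 in blood (SE 0.21, 95% interval 0.18 to 1.13; edgeR adjusted p = 1). Blood libraries with the same replicate number deviated together, though the labels do not state a pairing. Within such assumed pairs the ratio of Atg5-knockout to control was 1.62, 1.43 and 1.66. With the replicate number as a block, the edgeR adjusted p for Atf4 in blood was 0.258.

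Atf5 encodes a related factor that is itself induced through ATF4, and Ddit3 encodes CHOP, the factor that links prolonged stress to cell death. In bone marrow, Atf5 had 21.3, 12.4 and 15 CPM in controls and 16.7, 18.1 and 21.9 CPM in Atg5-knockout libraries, with overlap. In blood it had 7.38, 6.64 and 4.91 CPM in controls and 5.27, 7.36 and 5.16 CPM in Atg5-knockout libraries, again with overlap. Ddit3 stayed within 10.9 to 13.4 CPM in the 6 bone marrow libraries and within 8.58 to 16 CPM in the 6 blood libraries, with the genotypes mixed. Its log2 fold change of 0.01 in bone marrow had a 95% interval from -0.29 to 0.31, and that of -0.09 in blood one from -0.83 to 0.64.

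Trib3, Chac1 and Sesn2 act back on the response or on growth, Trib3 as a pseudokinase that restrains ATF4 and CHOP, Chac1 as an enzyme that breaks down glutathione, and Sesn2 as an inhibitor of mTORC1. Trib3 had 7.06, 5.47 and 4.37 CPM in bone marrow controls and 7.16, 7.63 and 8.18 CPM in bone marrow Atg5-knockout libraries. The groups did not overlap, but the highest control (7.06 CPM) and the lowest Atg5-knockout library (7.16 CPM) lay close together, and the log2 fold change was 0.41 (SE 0.20; edgeR adjusted p = 0.533), and 0.26 without control replicate 3. In blood Trib3 had 1.22, 5.50 and 3.34 CPM in controls and 3.17, 4.06 and 2.40 CPM in Atg5-knockout libraries, with overlap. Chac1 had 1.80, 2.01 and 1.49 CPM in bone marrow controls and 3.03, 4.57 and 2.06 CPM in Atg5-knockout libraries, also without overlap. Its log2 fold change of 0.84 in bone marrow (SE 0.31, 95% interval 0.17 to 1.51; edgeR adjusted p = 0.401) was the largest of the 10. It was 0.51 without Atg5-knockout replicate 2, the library with 4.57 CPM (edgeR adjusted p = 0.999). In blood, Chac1 was counted 19 times over the 3 controls and 44 times over the 3 Atg5-knockout libraries, 34 of them in replicate 1, and it was too low there to be tested. Sesn2 ran from 32 to 38.1 CPM in bone marrow and from 26.8 to 44.8 CPM in blood, with overlap in each tissue.

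Among the enzymes, Phgdh and Psat1 carry out the opening steps of serine synthesis and Asns makes asparagine. Psat1 had 114, 90.0 and 94.0 CPM in bone marrow controls and 120, 129 and 117 CPM in Atg5-knockout libraries. These groups did not overlap, and the log2 fold change was 0.27 (SE 0.11, 95% interval 0.03 to 0.51; edgeR adjusted p = 0.453). Asns had 18, 10.6 and 9.61 CPM in bone marrow controls and 18.8, 16.9 and 15.7 CPM in Atg5-knockout libraries, so that control replicate 1 lay among the Atg5-knockout values. The log2 fold change was 0.40 with all libraries (edgeR adjusted p = 0.566) and 0.72 without bone marrow control replicate 1, when Asns passed the test (edgeR adjusted p = 0.0335). That fit called 219 of all genes, and the fit with all libraries 48. The log2 fold change of Asns was 0.23 without control replicate 3 (edgeR adjusted p = 0.864). Between 0 and 1 member was called in the fits that left out 1 library, and over all alternatives for Asns in bone marrow the adjusted p ran from 0.0335 to 1. Phgdh had 66.2, 74.0 and 63.6 CPM in bone marrow controls and 70.1, 73.2 and 61.6 CPM in Atg5-knockout libraries, with overlap and a 95% interval of the log2 fold change from -0.26 to 0.22.

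In blood, Asns had 2.62, 1.76 and 1.57 CPM in controls and 1.33, 1.08 and 0.511 CPM in Atg5-knockout libraries. The Atg5-knockout values lay below the controls without overlap, from 65 reads against 115 over the groups, with a log2 fold change of -1.0 (SE 0.54, 95% interval -2.22 to 0.23; edgeR adjusted p = 1). Within pairs the ratios were 0.507, 0.616 and 0.325, and the adjusted p with the replicate block was 0.672. Psat1 had 13.5, 9.46 and 10.1 CPM in blood controls and 11.7, 8.85 and 6.29 CPM in Atg5-knockout libraries, with overlap. Within pairs it was lower in 3 of 3 (ratios 0.871, 0.936 and 0.624), with a log2 fold change of -0.28 (edgeR adjusted p = 1), -0.30 with the replicate block (adjusted p = 0.798) and -0.35 without replicate 1 of both groups (adjusted p = 0.896). The value rested on single libraries, being -0.53 without Atg5-knockout replicate 1, -0.11 without control replicate 1 and -0.081 without Atg5-knockout replicate 3. Phgdh had 11.8, 3.92 and 2.46 CPM in blood controls and 22, 3.43 and 3.22 CPM in Atg5-knockout libraries, so that replicate 1 was the highest in both genotypes. Its log2 fold change was 0.68 with all libraries (SE 0.82), -0.85 without Atg5-knockout replicate 1 and 0.08 without replicate 1 of both groups, and 0 of these had an edgeR adjusted p under 0.05.

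Slc3a2 encodes the heavy chain 4F2hc (CD98), which carries SLC7A5 and SLC7A11 to the cell surface. It had 136, 116 and 109 CPM in bone marrow controls and 124, 111 and 117 CPM in bone marrow Atg5-knockout libraries. In blood it had 170, 209 and 219 CPM in controls and 142, 179 and 180 CPM in Atg5-knockout libraries. The genotypes overlapped in both tissues, with 95% intervals of the log2 fold change from -0.30 to 0.18 and from -0.66 to 0.19. Within pairs of blood libraries Slc3a2 was lower in the Atg5-knockout in 3 of 3, with ratios of 0.837, 0.854 and 0.823. The log2 fold change in blood was -0.24 with the replicate block (edgeR adjusted p = 0.730) and also -0.24 without replicate 1 of both groups (adjusted p = 0.872). With 1 blood library left out it ran from -0.34 (without control replicate 1) to -0.14 (without Atg5-knockout replicate 1).

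Across the members, 4 of 10 were higher without overlap in Atg5-knockout bone marrow and 0 were lower, beside 8.69% and 5.67% of all genes tested. In blood 1 of the 9 tested was higher and 1 lower without overlap, beside 3.53% and 4.05%. The median log2 fold change of the members was 0.23 in bone marrow and -0.09 in blood, where that of all genes tested was 0.00 and 0.01. The bone marrow median was 0.39 without control replicate 1 and 0.13 without control replicate 2. The blood median did not keep its sign, at -0.27 without Atg5-knockout replicate 2, -0.20 without control replicate 2, -0.15 without control replicate 3, 0.050 without Atg5-knockout replicate 3 and 0.0072 with scaling by library size alone. These counts are descriptions.

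**Figure D2:**
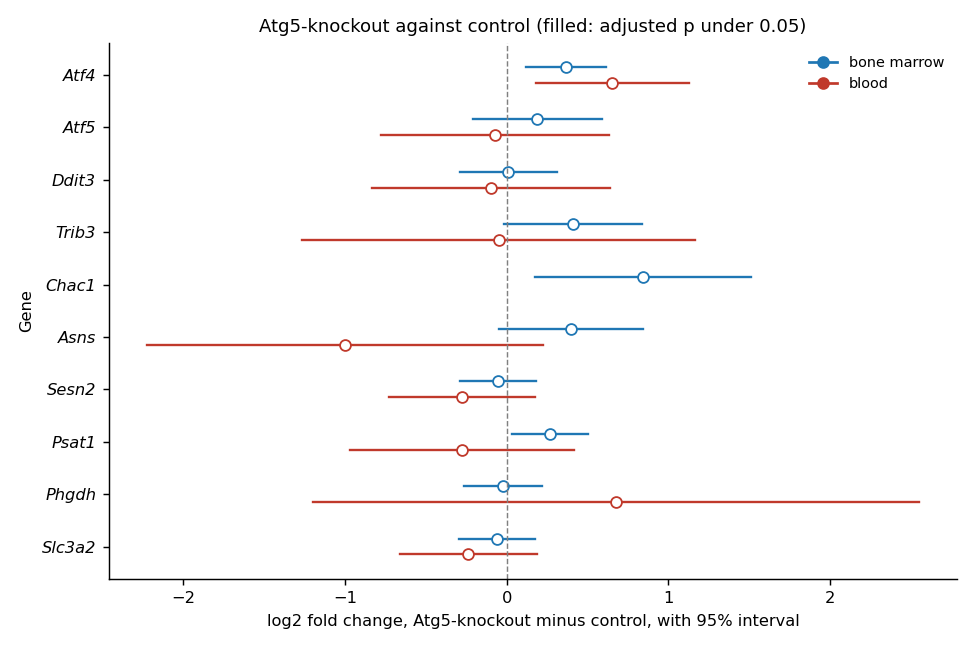
The log2 fold change of Atg5-knockout against control (horizontal axis) with its 95% interval for each member, in bone marrow (blue, 3 against 3 libraries) and blood (red, 3 against 3). Every point is open because 0 members passed an adjusted p of 0.05, and Chac1 was not tested in blood. The Atf4 intervals, from 0.12 to 0.61 and from 0.18 to 1.13, lie above 0 in both tissues before adjustment for the number of genes.

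Whether the Atg5-knockout difference itself differed between the tissues was tested as an interaction over the 12 libraries. Among the members 0 of 10 were called, as were 0% of all genes, and 1 member had an unadjusted p under 0.05, beside 5.03% of all genes. DESeq2 called 14 genes over all and 0 members. The 1 member was Asns, with an interaction of -1.43 (SE 0.48, 95% interval -2.46 to -0.39; edgeR adjusted p = 0.909). For Atf4 the interaction was 0.24 with a 95% interval from -0.27 to 0.75, so a difference between the tissues was not detectable. With 1 library left out this value ran from 0.12 (without blood Atg5-knockout replicate 2) to 0.43 (without blood control replicate 2), with 0.12 also without blood control replicate 3 and 0.15 without bone marrow Atg5-knockout replicate 3.

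The other genes of the pathway were taken from 8 lists that hold 78 genes. In Atg5-knockout against control, 0 of the 74 tested in bone marrow and 0 of the 72 tested in blood were called by edgeR, and limma-voom also called 0 in each. At an unadjusted p under 0.05, 9 were higher and 2 lower in bone marrow, beside 601 higher and 732 lower of the 13781 genes tested. In blood 1 was higher and 0 lower, beside 148 and 199 of 13460. By sign alone, 55 were higher and 19 lower in bone marrow, with a median log2 fold change of 0.09 beside 0.00 for all genes. In blood 41 were higher and 31 lower, with a median of 0.03 beside 0.01. Of the 13 cytosolic aminoacyl-tRNA synthetases, 13 were higher in bone marrow, and 5 were higher and 8 lower in blood. These counts of signs are descriptions. Ddit4, which encodes the mTORC1 inhibitor REDD1, had the lowest p of its list in both tissues. In bone marrow it had 35.1, 43.1 and 47.5 CPM in controls and 51.5, 93.0 and 100.5 CPM in Atg5-knockout libraries, from lowest to highest and without overlap. Its log2 fold change there was 0.93 (SE 0.21; edgeR adjusted p = 0.104), and DESeq2, which called 1 of the pathway genes, called it with an adjusted p of 0.000699. Without bone marrow Atg5-knockout replicate 1, edgeR called it too (1.18, adjusted p = 0.00706). In blood its log2 fold change was 0.79 (SE 0.38; edgeR adjusted p = 1). Cebpb, which encodes a partner of ATF4 and CHOP, had log2 fold changes of -0.52 in bone marrow (edgeR adjusted p = 0.512) and 0.76 in blood (edgeR adjusted p = 1). Without the filter on low counts it was called lower in bone marrow (-0.52, edgeR adjusted p = 0.00415), and its interaction was called as well (1.20, edgeR adjusted p = 0.00980). Ddit4, Ppp1r15a and Slc6a9 were called higher in bone marrow without that filter, with log2 fold changes of 0.93, 0.64 and 1.33. Their edgeR adjusted p-values were 3.71e-11, 0.00603 and 0.0285, in a fit that called 420 of all genes. Without bone marrow control replicate 1, Aars1, Mthfd2 and Slc6a9, an alanyl-tRNA synthetase, a mitochondrial folate enzyme and a glycine transporter, passed the test in bone marrow beside Asns, with log2 fold changes of 0.66, 0.48 and 2.16. That fit called 219 of the 14165 genes tested, and the fit with all libraries 48 of 13781.

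The second comparison set blood against bone marrow within a genotype. In CPM, the biosynthetic members were far lower in blood than in bone marrow libraries, and Slc3a2 was higher. Atf4, Ddit3 and Sesn2 did not pass the test in either genotype. In controls 5 of the 10 members fell and 1 rose, and in Atg5-knockout cells 6 fell and 1 rose. Over all genes tested, 18% fell and 16.2% rose in controls, and 24.1% fell and 23.5% rose in Atg5-knockout cells. With a log2 fold change below -2 as well, 4 members were called in each genotype (Chac1, Asns, Psat1 and Phgdh), beside 5.19% of all genes in controls and 6.13% in Atg5-knockout cells. Of these, Chac1 was too low to be tested in blood alone and passed the filter on low counts through bone marrow, where it was high. Its place in these counts is a description. The libraries of each group also entered the comparison of genotypes, so these comparisons share samples with it.

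The serine enzymes showed the deepest difference in controls. Psat1 fell from the 90.0 to 114 CPM of bone marrow controls to the 9.46 to 13.5 CPM of blood controls, 9.12-fold (log2 fold change -3.19, SE 0.20; edgeR adjusted p = 1.83e-05). In Atg5-knockout cells it fell from 117 to 129 CPM to 6.29 to 11.7 CPM, 13.4-fold (log2 fold change -3.75, SE 0.22; edgeR adjusted p = 4.35e-06). No blood library came near a bone marrow library. Without blood replicate 1 of its genotype the log2 fold change was -3.35 in controls and -3.99 in Atg5-knockout cells.

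Phgdh fell 11.4-fold in controls (log2 fold change -3.52, SE 0.50; edgeR adjusted p = 0.00111) and 7.01-fold in Atg5-knockout cells (log2 fold change -2.81, SE 0.64; edgeR adjusted p = 0.00647). Its 2 highest blood values, 22 CPM in Atg5-knockout replicate 1 and 11.8 CPM in control replicate 1, belonged to the libraries that stood apart in several marker lists. The B cell list took 0.0971% and 0.0437% of the reads in those libraries and 0.00126 to 0.00394% in the other 4. The plasma cell list took 0.208% and 0.113% and in the others 0.0304 to 0.0692%, and the T cell list took 0.0323% and 0.0177% and in the others 0.00257 to 0.00551%. Dividing-cell markers took 0.0225% and 0.0226% of the reads there and at most 0.0167% in the others, neutrophil markers 2.13% and 1.68% and at most 1.63%, and eosinophil markers 1.80% and 2.24% and at least 2.73%. The part of any of these cells in the Phgdh values was not tested. Without blood replicate 1 of its genotype, the log2 fold change of Phgdh was -4.41 in controls and -4.34 in Atg5-knockout cells. With any other library left out it ran up to -3.13 and -2.40, and its edgeR adjusted p stayed at or under 0.0239. Phgdh has many processed copies, and 59.8% of the 50-base stretches of its longest transcript also occur in transcripts of 20 other gene models, so its level is uncertain. The 18 of these found in the table had 106 reads in all, beside 13078 for Phgdh.

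**Figure D3:**
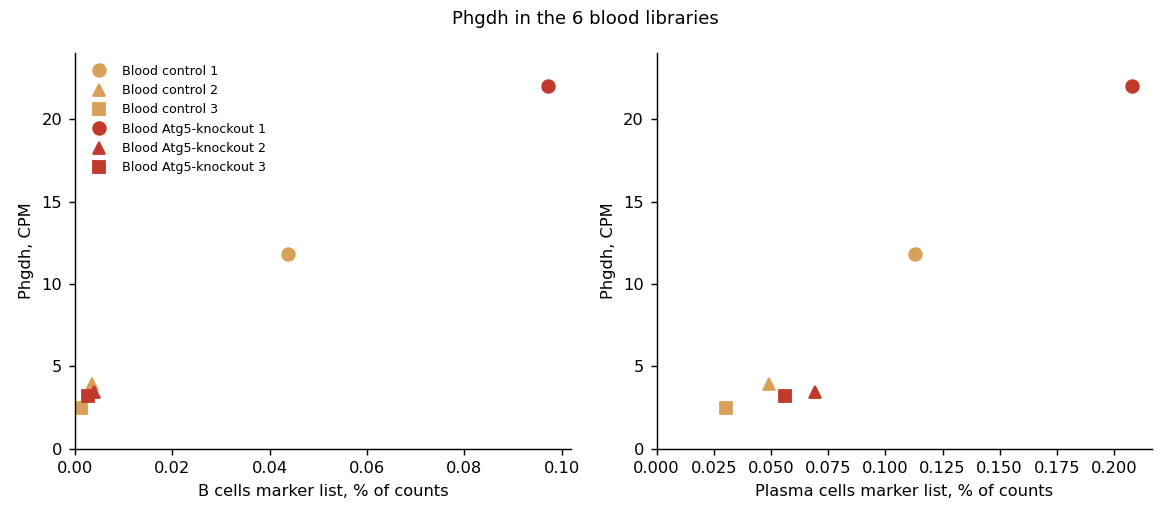
Phgdh in CPM (vertical axis) against the share of reads in the B cell and the plasma cell marker lists (horizontal axes, % of counts) in the 6 blood libraries, with circles for replicate 1 of each genotype. The circles, at 11.8 and 22 CPM, lie apart from the other 4 libraries in all 3 measures.

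Asns fell 6.49-fold in controls (log2 fold change -2.70, SE 0.35; edgeR adjusted p = 0.000703) and 17.1-fold in Atg5-knockout cells (log2 fold change -4.10, SE 0.33; edgeR adjusted p = 2.47e-05). The lowest bone marrow library had 9.61 CPM and the highest blood library 2.62 CPM. The direction of these 3 enzymes went with the share of reads from dividing-cell genes, whose lowest bone marrow value (0.212%) was above the highest blood value (0.0226%), and the part of dividing cells in the result was not tested.

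Among the regulators, Atf5 fell 2.59-fold in controls (log2 fold change -1.37, SE 0.28; edgeR adjusted p = 0.00602) and 3.15-fold in Atg5-knockout cells (log2 fold change -1.65, SE 0.22; edgeR adjusted p = 0.000367), without overlap in either. The exons of Atf5 share 82 of 1993 bases with each of Nup62 and Il4i1 on the other strand, and no option for strand was set in the counting. Chac1 fell 5.31-fold in controls (log2 fold change -2.41, SE 0.61; edgeR adjusted p = 0.0153) and 4.82-fold in Atg5-knockout cells (log2 fold change -2.27, SE 0.71; edgeR adjusted p = 0.0262). These blood levels rest on 2 to 9 reads a library in controls and 3 to 34 in Atg5-knockout cells. Chac1 passed the filter on low counts through bone marrow, where it was high, so its fall is given as a description. Chac1 lost its call when any 1 of the bone marrow controls was left out, with adjusted p from 0.0524 to 0.0582. In Atg5-knockout cells it lost its call without blood replicate 2 (adjusted p = 0.0564) or 3 (0.0588) or without bone marrow replicate 1 (0.0705) or 2 (0.110). Without blood Atg5-knockout replicate 1, which held 34 of the 44 blood reads, its log2 fold change was -3.70 (adjusted p = 0.000453), and without blood replicate 2 it was -1.79. In controls the log2 fold change was -2.76 without blood replicate 1 (adjusted p = 0.00625) and -1.92 without blood replicate 2 (adjusted p = 0.0288). Trib3 had a log2 fold change of -0.75 in controls (SE 0.49, edgeR adjusted p = 0.265), where blood replicate 2 overlapped with bone marrow. The value in controls was -1.30 without that library (adjusted p = 0.0844) and -0.36 without blood replicate 1 (adjusted p = 0.406). Trib3 fell 2.35-fold in Atg5-knockout cells (log2 fold change -1.23, SE 0.27; edgeR adjusted p = 0.00493).

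Atf4 had log2 fold changes of -0.42 in controls (SE 0.19, 95% interval -0.85 to 0.01; edgeR adjusted p = 0.117) and -0.15 in Atg5-knockout cells (SE 0.14, 95% interval -0.47 to 0.17; edgeR adjusted p = 0.402). Without blood control replicate 2, whose 282 CPM was the highest of the blood controls and lay inside the bone marrow range, the value in controls was -0.61 (edgeR adjusted p = 0.0361). In Atg5-knockout cells it ran from -0.27 without blood replicate 2 to -0.082 without blood replicate 3, with -0.24 without bone marrow replicate 3, and none of these fits called it. Ddit3 had log2 fold changes of 0.08 and -0.04, and Sesn2 of 0.09 and -0.15, in controls and Atg5-knockout cells, with overlap between the tissues each time. The 95% intervals ran from -0.52 to 0.69 and from -0.56 to 0.48 for Ddit3, and from -0.28 to 0.47 and from -0.48 to 0.18 for Sesn2. In Atg5-knockout cells Sesn2 ran from -0.23 without bone marrow replicate 2 to -0.044 without blood replicate 3. Reads that fall on exons shared by several genes are not counted by default, which touches Ddit3, with 105 of 1713 exon bases inside a second short model of the same name and 68 shared with Mars1.

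Slc3a2 was the 1 member that rose, 1.64-fold in controls (log2 fold change 0.72, SE 0.17; edgeR adjusted p = 0.0112) and 1.43-fold in Atg5-knockout cells (log2 fold change 0.52, SE 0.13; edgeR adjusted p = 0.00988). Every blood library was above every bone marrow library of its genotype. Without blood replicate 1 of its genotype the log2 fold change was 0.82 in controls and 0.62 in Atg5-knockout cells, and both passed the test. The call was lost without bone marrow control replicate 2 or 3 in controls (adjusted p = 0.0606 and 0.0800) and without bone marrow replicate 2 in Atg5-knockout cells (0.0607), with the direction kept. Scaled by library size alone, which lowered the median log2 fold change of all genes to -0.31 in controls and -0.24 in Atg5-knockout cells, Slc3a2 was not called (0.41 and 0.28) and Atf4 was called lower in both genotypes (-0.72 and -0.38).

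**Figure D4:**
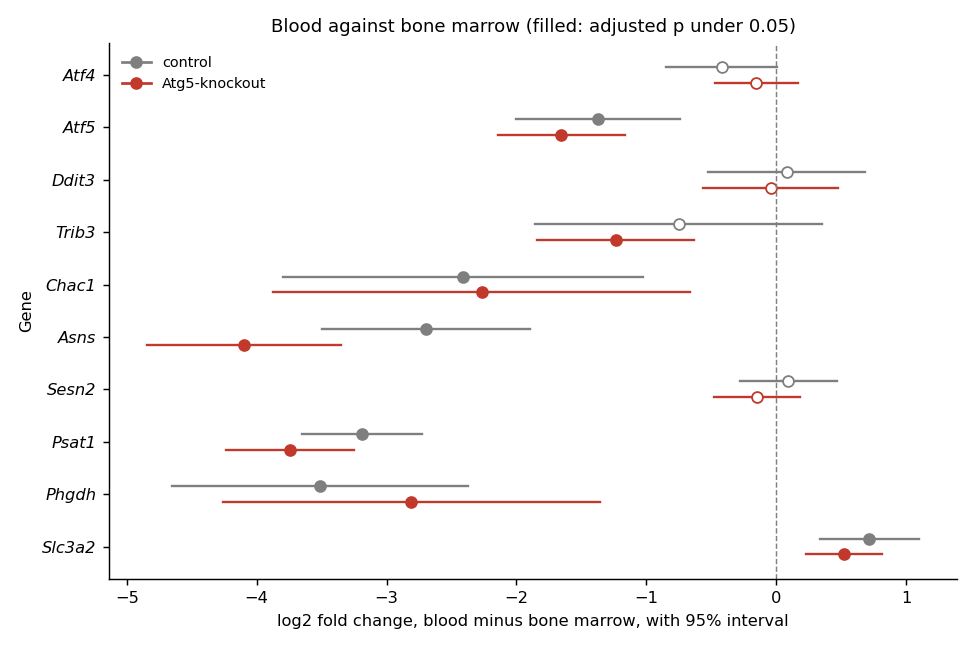
The log2 fold change of blood against bone marrow (horizontal axis) with its 95% interval for each member in control (grey) and Atg5-knockout (red) eosinophils, 3 against 3 libraries each. Filled points passed an adjusted p of 0.05, and the filled points of Asns, Psat1 and Phgdh lie between -4.10 and -2.70 while Slc3a2 lies at 0.72 and 0.52.

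The median log2 fold change of the 10 members was -1.06 in controls and -1.44 in Atg5-knockout cells, where that of all genes tested was 0.00 and -0.01. Of the 74 pathway genes tested, 25 fell and 17 rose in controls, with a median of -0.35, and 36 fell and 19 rose in Atg5-knockout cells, with a median of -0.45. Over all genes tested the shares were 18% and 16.2% in controls and 24.1% and 23.5% in Atg5-knockout cells, and the share of pathway genes that rose in Atg5-knockout cells was near that of all genes.

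The lists did not move alike. Of the 9 tested enzymes of the serine, one-carbon, proline and sulfur amino acid pathways, 7 fell and 0 rose in controls, and 8 fell and 0 rose in Atg5-knockout cells. Shmt1, the cytosolic serine hydroxymethyltransferase, had 15.2 to 16.9 CPM in bone marrow controls and 1.45 to 2.26 CPM in blood controls (log2 fold change -3.12; edgeR adjusted p = 6.71e-05). The folate enzyme Mthfd2 and the proline enzyme Pycr1 fell by 2.70 and 2.26 on the log2 scale in controls (edgeR adjusted p = 8.12e-05 and 0.00607), and by 2.67 and 2.70 in Atg5-knockout cells (edgeR adjusted p = 1.67e-06 and 0.00100). Cytosolic aminoacyl-tRNA synthetases, which charge transfer RNAs, fell in 5 of 13 cases in controls and 9 of 13 in Atg5-knockout cells, and 1 rose in each genotype. Those that fell included Iars1 and Aars1, with log2 fold changes of -1.83 and -1.41 in controls, and the riser was Wars1, also known as an interferon-induced gene, at 1.03 in each genotype. Dividing-cell genes also took fewer of the reads in blood (0.0152 to 0.0226%) than in bone marrow (0.212 to 0.293%). The part of dividing cells in the falls of these lists was not tested.

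Of the 7 transporters tested, the counts in controls were near those of all genes (18% fell and 16.2% rose). In controls 1 fell, Slc38a2 (log2 fold change -1.14; edgeR adjusted p = 0.00315), and 1 rose, Slc7a11, the light chain of the cystine transporter that SLC3A2 carries, from 17.9 to 25.1 CPM in bone marrow to 91.3 to 130 CPM in blood (log2 fold change 2.29; edgeR adjusted p = 9.77e-05). In Atg5-knockout cells 4 fell and 1 rose, with Slc6a9 and Slc7a5, the light chain of the leucine transporter, at -2.19 and -2.04 and Slc7a11 at 1.89.

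Among the transcription factors, Cebpg, a partner of ATF4 at its target genes, fell from 78.6 to 85.8 CPM to 9.77 to 23.6 CPM in controls (log2 fold change -2.26; edgeR adjusted p = 0.000666). Cebpb and Atf3 rose there, with log2 fold changes of 3.02 and 2.54 (edgeR adjusted p = 4.81e-05 and 0.00396). In Atg5-knockout cells Cebpg was at -1.55, Cebpb at 4.27 and Atf3 at 3.22, and each passed the test. In the list of eIF2alpha kinases, phosphatases and eIF2 factors 4 of 14 rose and 3 fell in controls, where 16.2% of all genes rose and 18% fell. In Atg5-knockout cells 4 of this list rose and 5 fell, where 23.5% of all genes rose and 24.1% fell. The largest difference was that of Ppp1r15a, which encodes the phosphatase subunit GADD34 that reverses eIF2alpha phosphorylation and had 9.83 to 11.9 CPM in bone marrow controls and 87.0 to 206 CPM in blood controls (log2 fold change 3.90; edgeR adjusted p = 6.72e-05). Eif2ak4, which encodes the amino acid sensing kinase GCN2, rose by 0.99 and 0.74.

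Of the stress effectors, Ddit4 rose with log2 fold changes of 3.17 and 3.00 in controls and Atg5-knockout cells. Stc2, a secreted glycoprotein, was lower in blood in both genotypes. It passed the filter on low counts only through bone marrow, where it was high, and is given as a description. It had 0 reads in the 3 blood Atg5-knockout libraries and 108 in the 3 bone marrow ones, at least 26.5-fold lower when 3 reads over the group are taken as the floor. In blood controls it had 5 reads, 4 of them in 1 library, and 93 in bone marrow controls. Autophagy genes downstream of ATF4 or CHOP rose in 6 of 11 cases in controls and 7 of 11 in Atg5-knockout cells, and 0 fell, with Map1lc3b, which encodes the autophagosome protein LC3B, at 1.5 and 1.61. ER chaperones, which belong to the ATF6 and XBP1 arms of the unfolded protein response and are not ATF4 targets in the main, fell in 6 of 9 cases in controls and 7 of 9 in Atg5-knockout cells, Hyou1 by 1.53 and 2.01, and Dnajb9 rose in both.

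**Figure D5:**
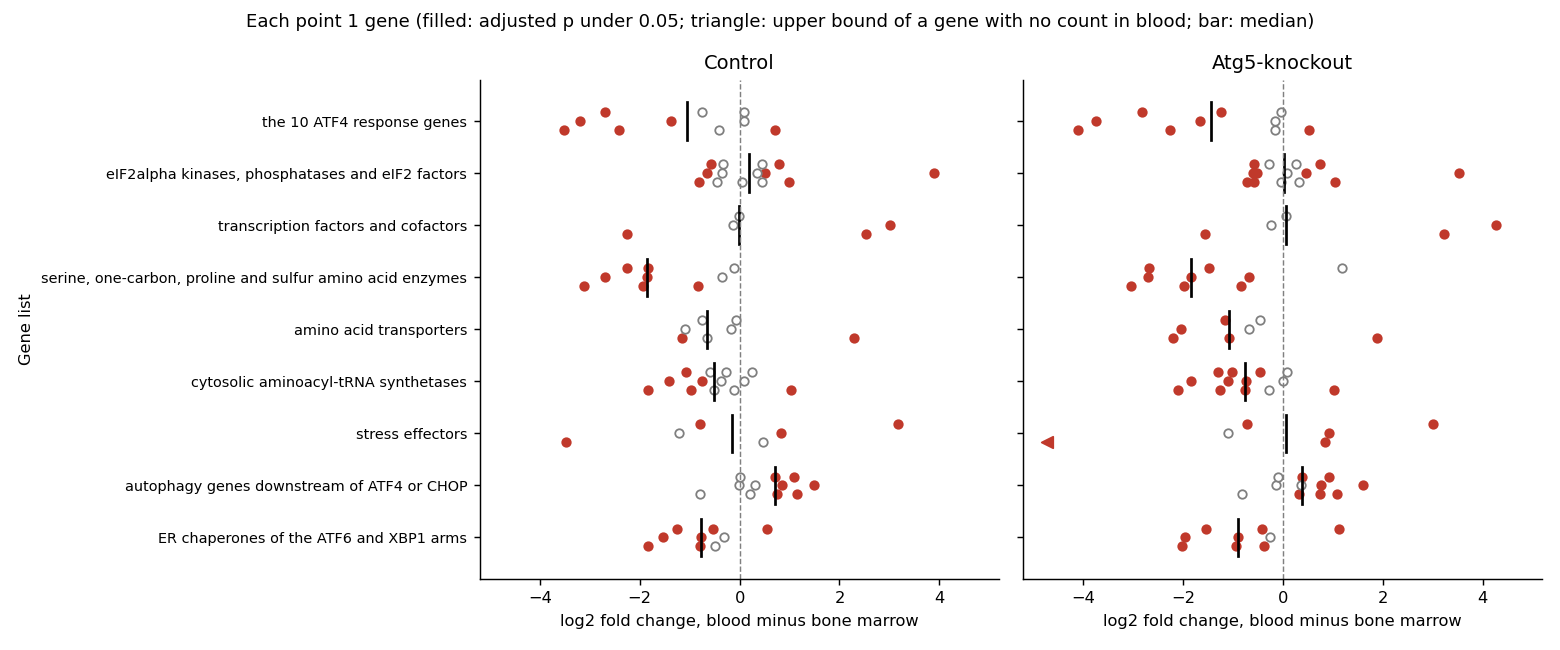
The log2 fold change of blood against bone marrow (horizontal axis) of each tested gene of the 10 ATF4 response genes and of 8 pathway lists (rows), in control and Atg5-knockout eosinophils. Filled points passed an adjusted p of 0.05, bars are medians, and the triangle is the bound for Stc2, which had no read in blood of Atg5-knockout mice. The serine, one-carbon, proline and sulfur enzymes lie lowest among the pathway lists, with medians of -1.86 and -1.83, and the autophagy genes have medians of 0.72 and 0.39.

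The genes whose pattern over the 12 libraries was most like that of Atf4 did not include a member. Likeness was measured as the root mean square difference of log2 CPM after each gene was centred on its own mean, over 14711 other genes. The nearest genes were Mfsd12, Pced1a, Mmgt2, Dhx57 and Erbb3, with differences between 0.16 and 0.19 on the log2 scale. The 9 other members ranked from 4059 (Sesn2, difference 0.46) and 4506 (Ddit3, 0.47) to 13947 (Asns, 1.68) and 14146 (Phgdh, 1.86). Genes that vary little lie nearer by this measure, since Atf4 itself varied little, with an SD of 0.36 over the libraries, beside 2.06 for Phgdh and 0.18 for Sesn2. The points share libraries and tissues, and no test was made.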

How the data were processed

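Gene counts were deposited by the authors as raw counts per Ensembl gene for 12 libraries. Per the file headers they were made with featureCounts 2.0.1 on Ensembl release 92 (GRCm38), with the paired-end option and no strand option, while the study's methods name single-end reads of a stranded kit and a GRCm39 annotation. The submitters' processing notes list HISAT2 2.2.1, R 4.1.0 and DESeq2 1.32.0. Here counts were tested in R 4.3.3 with edgeR 4.0.16 (quasi-likelihood test, TMM, filterByExpr with a minimum count of 10 and total of 15, prior count 0.125) for each comparison separately, with Benjamini-Hochberg adjustment over all genes tested and calls at an adjusted p under 0.05. Intervals are approximate, from the estimate, its SE and the t distribution of the fit. The interaction used all 12 libraries. CPM used TMM factors over the 12 libraries. DESeq2 1.42.0, limma-voom (limma 3.58.1), other scalings, filters, a replicate block and each library left out were alternatives, and the fits were tested on simulated data.

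The members and lists were chosen with earlier results of these data known. Named pathway genes were, in each list and comparison, up to 3 in each direction of largest log2 fold change among those called, or the gene of lowest p; Eif2ak1 and the genes called without bone marrow control replicate 1 were named after their values were seen, and not every gene the rule gives is printed. Marker lists were read only as shares of counts. The deviations of blood libraries of the same number from the group means correlated (r = 0.57, 0.26 and 0.35). Those of numbers 2 and 3 also correlated with each other across genotypes (r = 0.14 both ways). The labels do not say that libraries of the same number were handled together, so the pairs of blood libraries are an assumption. The fits reported have no block, and the blocked fit is an alternative. Replicates differed beyond sampling noise, so none was counted as a duplicate.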

Additional observations from a re-analysis of the deposited data

Results flagged for a closer look

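Eif2ak1, which encodes the heme-regulated eIF2alpha kinase HRI, was noted because its Atg5-knockout and control libraries did not overlap in either tissue and lay in opposite order. In bone marrow it had 61.1, 65.9 and 68.6 CPM in controls and 70.4, 72.8 and 73.1 CPM in Atg5-knockout libraries, from lowest to highest. In blood it had 85.6, 90.8 and 104 CPM in controls and 70.1, 75.5 and 79.9 CPM in Atg5-knockout libraries. The interaction was -0.46 on the log2 scale (SE 0.17; edgeR adjusted p = 0.942) and did not pass the test over all genes. Of all genes tested, 8.69% were higher without overlap in Atg5-knockout bone marrow and 4.05% were lower without overlap in Atg5-knockout blood. The share with both was not counted, and Eif2ak1 was picked after its values were seen.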

How the results depend on the processing

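Among values of single members under alternatives, 696 kept their direction and their side of the threshold, 4 newly passed it, 12 no longer did and 43 changed sign. With the replicate block, 23 of all genes were called in bone marrow (48 without it) and 10 in blood (5 without it), the log2 fold changes of Trib3 in blood and of the Chac1 interaction turned to 0.11 and -0.087, and no member changed its call. Only between the blood groups did libraries of the same number correlate for every number. DESeq2 called 193 genes in bone marrow, 22 in blood and 14 in the interaction, and 1 pathway gene in bone marrow. The fit on 12 libraries called 12 and 16 genes in bone marrow and blood and put Phgdh in bone marrow at 0.0074. Without a filter on low counts, 420, 77 and 119 genes were called in bone marrow, blood and the interaction, with 4 pathway genes in bone marrow and 1 in the interaction. Limma-voom put Trib3 in blood at 0.10 and the Chac1 interaction at -0.14. With library size alone, Phgdh in bone marrow was 0.012, and in blood Atf5 was 0.015, Ddit3 0.0072 and Trib3 0.034, while the tissue difference in controls was -0.23 for Ddit3 and -0.22 for Sesn2. The causes were not tested. With TGATGCAA alone, 1 member matched.

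With libraries left out, all genes called ran from 18 (without control replicate 3) to 219 (without control replicate 1) in bone marrow, 24 without Atg5-knockout replicate 1 or 2. They ran from 2 (without Atg5-knockout replicate 2 or 3 or control replicate 2 or 3) to 6 in blood, 3 without Atg5-knockout replicate 1. In the tissue difference of controls they ran from 2627 to 5926, with 3041, 2994 and 2627 without bone marrow control replicate 1, 2 or 3. Pathway genes called ran from 0 to 3 in bone marrow (1 without Atg5-knockout replicate 1, 3 without control replicate 1) and 27 (without bone marrow control replicate 1) to 45 in the tissue difference of controls, and members called from 0 to 1, 4 to 7 (tissue difference, controls) and 5 to 7 (Atg5-knockout). Signs turned for small values and for some larger ones, among them Phgdh in blood. In bone marrow the ranges were -0.074 to 0.068 for Ddit3, -0.11 to 0.022 for Sesn2, -0.071 to 0.051 for Phgdh and -0.13 to 0.029 for Slc3a2. In blood they were -0.25 to 0.055 for Atf5, -0.34 to 0.083 for Ddit3, -0.44 to 0.50 for Trib3 and -0.85 to 1.60 for Phgdh. For the tissue difference they were -0.063 to 0.32 (Ddit3) and -0.013 to 0.20 (Sesn2) in controls and -0.29 to 0.14 (Ddit3) in Atg5-knockout cells. For the interaction they were -0.41 to 0.026 (Ddit3), -0.90 to 0.038 (Trib3), -1.27 to 0.58 (Chac1) and -0.82 to 1.58 (Phgdh). The fits without replicate 1 of both blood groups, chosen after seeing the data, turned 4 more signs, and their values of Phgdh are in the report. Atf5 and Ddit3 in blood were 0.13 and 0.044, and the interactions of Ddit3 and Chac1 were 0.024 and -0.93.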
